A study of Gallus gallus with 8 samples.

Results

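Messenger RNAs for 82 genes of the protein synthesis machinery were followed in the breast muscle of broiler chickens. They were chosen by symbol from the 8076 genes of the authors' deposited gene table: 46 with an initiation factor symbol (EIF followed by a digit), 6 with an elongation factor symbol (EEF1 or EEF2) and 30 aminoacyl-tRNA synthetases. The count table holds 17108 genes, of which 10136 had enough reads to be tested, all 82 among them. The samples were pectoralis muscle of female Hubbard Flex chickens, a commercial meat-type bird, aged 6 weeks. Shear force, the force needed to cut the meat, was high in 4 birds and low in 4 birds, called high and low birds here, and the labels give no treatment or genetic change for either group.

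During initiation, eIF2 carries the initiator tRNA to the small ribosomal subunit, eIF3 serves as a scaffold, and the eIF4 proteins bring the capped messenger RNA. The ribosome scans to a start codon with the help of eIF1, eIF1A and eIF5, and eIF5B joins the large subunit. In elongation, eEF1A delivers each charged tRNA, the eEF1B subunits recharge eEF1A with GTP, and eEF2 moves the ribosome along. Aminoacyl-tRNA synthetases load amino acids onto their tRNAs. Several cytosolic synthetases sit together in a multi-synthetase complex, and separate nuclear genes, with symbols ending in 2, encode most mitochondrial ones. Muscle is known for its own form of eEF1A and for control of initiation by nutrients through the kinase MTOR.

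Total expected counts ran from 6672776 to 7322205 in the high birds and from 5564905 to 7319140 in the low birds. Levels are counts per 1e6 of the TMM-scaled library (CPM); they compare birds for a gene, not genes with each other, since no length enters. As a check of the tissue, 5 of 10 listed muscle fibre markers were tested, ACTA1, TNNT3, TNNI2, MB and PVALB, and summed to 72399 to 105597 CPM across the birds. MB and PVALB added little, with means of 14.5 and 9.36 CPM in high and 11.6 and 17.5 CPM in low birds. Of the 5, 2 were higher and 3 lower in the high birds, and PVALB was lowest, at a log2 fold change of -0.89 ± 0.35 (SE). On the first principal component of all genes, low birds 1 and 3 stood at 38.95 and 43.9, and the other 6 birds between -24.4 and -3.27, so the larger log2 fold changes are also given without those 2 birds. Markers of other cell types moved with the group. The 7 measured fibroblast markers were all higher in the high birds, with sums of 3059 to 4129 CPM against 2175 to 2915 CPM. The same held for 4 smooth muscle and pericyte markers (182 to 349.7 against 118 to 169 CPM), 6 endothelial markers (139 to 291 against 114 to 199 CPM) and 3 globin genes (157 to 610.3 against 56.1 to 92.7 CPM). Of the 4 adipocyte markers 3 were higher, those of leukocytes (5 measured) were mixed, and both satellite cell markers were higher. None of these measured markers was at 0 in any bird, but only markers with enough reads to be tested were counted. Their part in the values below was not tested, and in bulk muscle fewer cells of a type and less RNA per cell cannot be told apart.

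The messenger RNAs of the translation machinery lay close together in the groups. None of the 82 genes reached an adjusted p under 0.05 by the edgeR quasi-likelihood test (0.0% of all tested genes did), the smallest being 0.319 for EIF4H. DESeq2 called none of the 82 either (smallest adjusted p 0.206), while it called 1.21% of all genes. An unadjusted p under 0.05 was reached by 4 of the 82 genes (4.88%), beside 12.8% of all genes. EIF4H, EIF4G2 and NARS had lower means in the high birds, a direction in which 4.91% of all genes had such a p. EIF2AK2 had a higher mean, where the share of all genes was 7.92%. With DESeq2 the count was 8 of 82, beside 13.2% of all genes.

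Across the 82 genes, 38 had a log2 fold change (high over low) above 0 and 44 below 0, where 49.2% of all genes lay below 0. Values ran from -0.57 for EIF4H to 0.51 for EIF2AK2, with a median of -0.017; that of all genes was 0.0064. Their median absolute log2 fold change was 0.122, beside 0.209 over the 7648 tested genes in the same range of mean level. That range, 2.48 to 12.14 in mean log2 CPM, is wide, and levels within it were not matched. An absolute value over 0.5 was found for EIF4H, EIF4ENIF1 and EIF2AK2, beside 18.7% of all genes. Birds of a group were also more alike: the median within-group SD of log2 CPM was 0.202, beside 0.2799 in that wider set. Among the steadiest members were EEF1A of chromosome 20 (SD 0.0815) and HARS (0.102), and the least steady EIF2C1 (0.563), EIF2C3 (0.4204) and TARS (0.403). HARS, EIF2C1 and TARS were chosen after their values were seen.

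**Figure D1:**
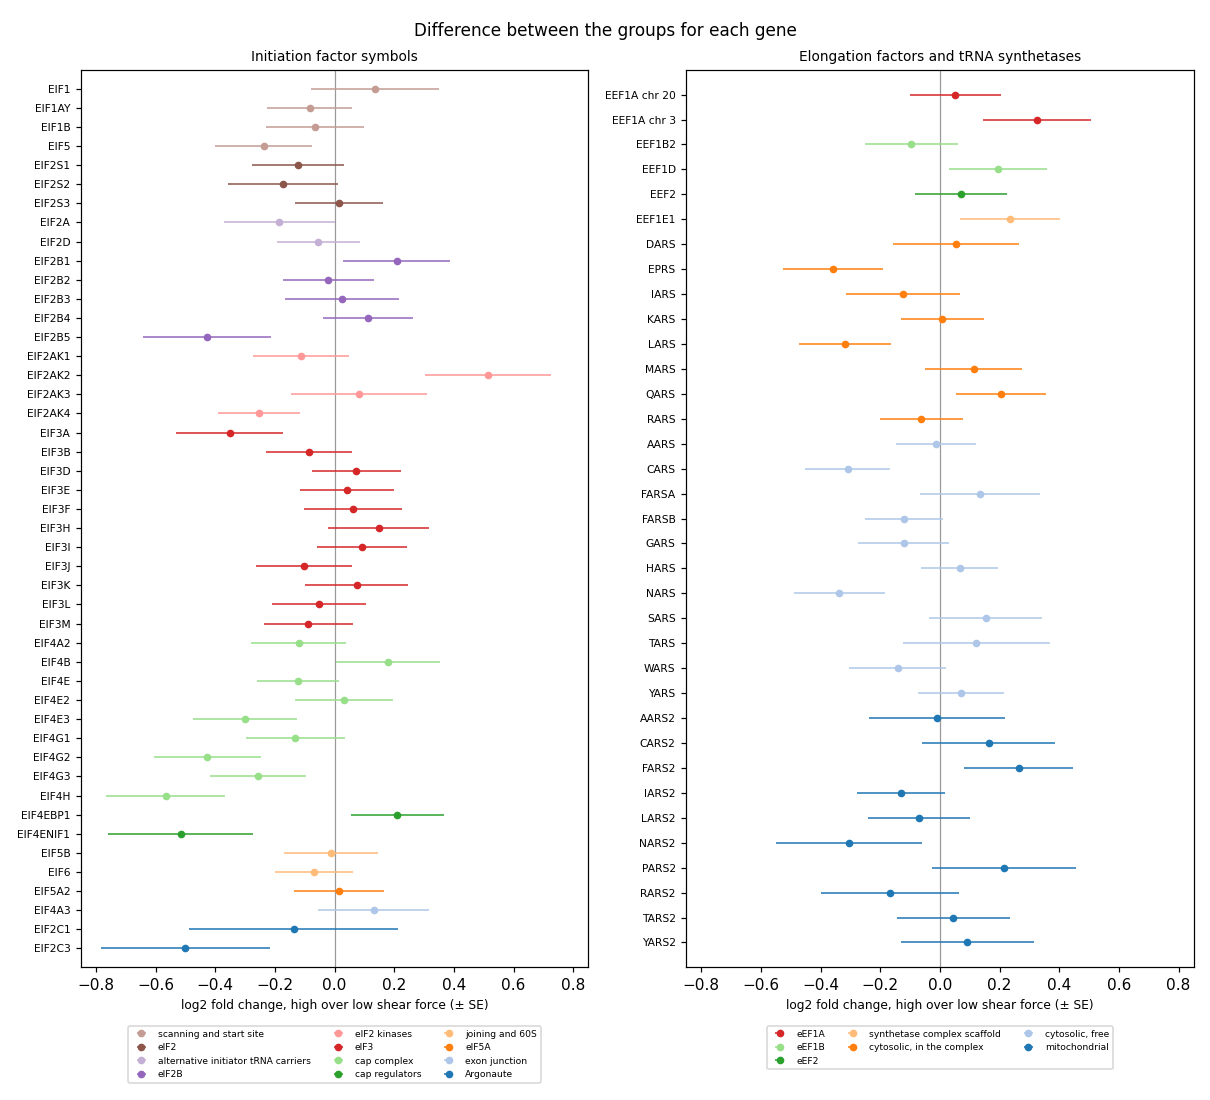
Log2 fold change (high over low shear force, horizontal axis) with its SE for 81 of the 82 genes, in rows grouped by role. Values run from -0.57 (EIF4H) to 0.51 (EIF2AK2), on both sides of 0 in each class.

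Initiation factor symbols gave 18 higher and 28 lower values, with a median log2 fold change of -0.067 (-0.093 with RLE and -0.047 with upper-quartile scaling). An unadjusted p under 0.05 was found for 3 of 46 (6.52%, beside 12.8% of all genes). EIF2C1 and EIF2C3 are older symbols of the Argonaute genes AGO1 and AGO3 of the small RNA pathway, by RefSeq's synonyms, and share only the name; without them the median was -0.060.

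Of the genes for proteins that bind the cap and unwind the messenger RNA, taken with their relatives, 7 of 9 lay below 0, with a median log2 fold change of -0.13. Without low birds 1 and 3, 8 of 9 lay below 0, with a median of -0.20. EIF4H, which stimulates the helicase EIF4A, lies on chromosome 19 from 2866424 to 2872602 in the deposited coordinates (the submitters' notes name galGal4). It had 28.6, 23.8, 25.1 and 19.8 CPM in high birds 1 to 4 and 44.3, 29.5, 43.6 and 26.4 CPM in low birds 1 to 4. The groups overlapped, with low birds 1 and 3 far above the other 6. The log2 fold change was -0.57 ± 0.20 (SE; edgeR adjusted p = 0.319), and -0.23 ± 0.19 when low birds 1 and 3 were left out.

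EIF4G2 is a relative of the scaffold EIF4G1 that does not bind the cap protein EIF4E (chromosome 5, 8194081 to 8205315). Its levels were 1404, 1353, 1167 and 1441 CPM across high birds 1 to 4 and 1817, 2087, 1974 and 1333 CPM across low birds 1 to 4. Low birds 1, 2 and 3 lay above every high bird, and low bird 4 lay inside the high range. The log2 fold change of -0.43 ± 0.18 (SE; edgeR adjusted p = 0.357) was -0.38 ± 0.23 when low birds 1 and 3 were left out. Among its transcripts, EIF4G2-201 averaged 875 ± 96.4 CPM in high and 1242 ± 223 CPM in low birds (SD, n = 4), or -0.51 ± 0.18 on the log2 scale (SE; edgeR adjusted p = 0.3403). EIF4G2-202 stood at -0.26 ± 0.21 (SE). Of 86 tested transcripts of the 82 genes, 3 had an unadjusted p under 0.05, EIF4G2-201, EIF4H-201 and EIF2AK2-201, beside 12.4% of all 10362 transcripts, and none passed adjustment.

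The other genes of this cap group differed less. EIF4E, which grips the cap, averaged 150.1 ± 11.9 CPM in high and 163 ± 15.1 CPM in low birds (SD, n = 4; edgeR adjusted p = 0.728). Its relative EIF4E3 stood at a log2 fold change of -0.30 ± 0.17, and the scaffolds EIF4G3 and EIF4G1 at -0.26 ± 0.16 and -0.13 ± 0.17 (SE). Without low birds 1 and 3 the latter 2 stood at -0.10 and -0.051. The helicase EIF4A2 stood at -0.12 ± 0.16 (SE), and at -0.13 without low birds 1 and 3. EIF4B and EIF4E2, named after their values were seen, were the members above 0, at 0.18 ± 0.17 and 0.033 ± 0.16 (SE), the second at -0.20 without those birds.

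The measured regulators of EIF4E had values of opposite sign. EIF4EBP1 encodes the protein that blocks EIF4E until MTOR phosphorylates it. It had 444, 456, 345 and 419 CPM over high birds 1 to 4 and 339, 391, 311 and 397 CPM over low birds 1 to 4, and the groups overlapped (log2 fold change 0.21 ± 0.16, SE; edgeR adjusted p = 0.581; 0.046 without low birds 1 and 3). The ratio of EIF4EBP1 to EIF4E counts was 2.81, 2.89, 2.596 and 2.76 in the high and 2.41, 2.26, 1.82 and 2.36 in the low birds. Every high bird had a higher ratio than every low bird. The ratio was formed after the levels were seen and was not tested. How often other gene pairs separate in this way was not counted. Ratios of EIF4G2 to EIF4G1 and of EIF3A to EIF3B were also formed, and in both the groups overlapped. EIF4ENIF1, which shuttles EIF4E and binds it in messenger RNA granules, had 8.302, 7.79, 9.03 and 6.45 CPM over the high and 13.5, 8.42, 14.7 and 8.401 CPM over the low birds. Low birds 1 and 3 stood out as for EIF4H, and the log2 fold change of -0.52 ± 0.24 (SE; edgeR adjusted p = 0.399) was -0.13 ± 0.25 without that pair.

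**Figure D2:**
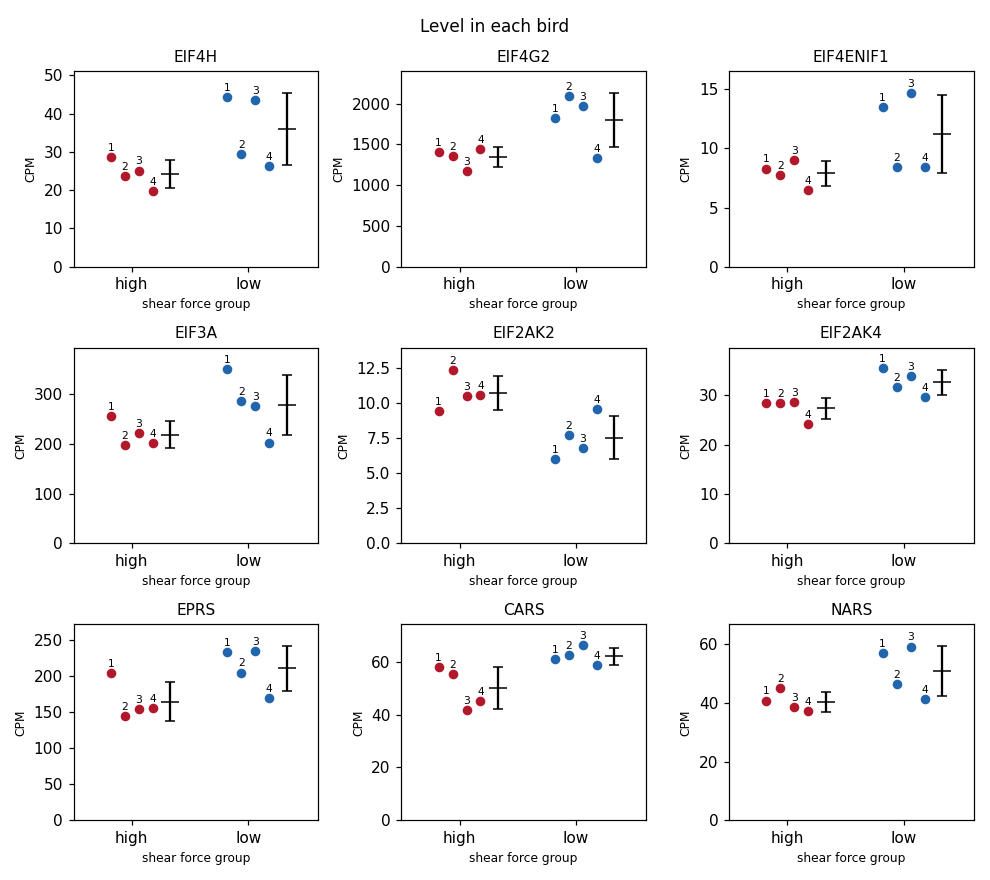
CPM in each bird (points) for 9 genes, with the mean and SD of the 4 birds of each shear force group; vertical axes start at 0. Low birds 1 and 3 are the highest of the 8 for EIF4H, EIF4ENIF1, NARS and EPRS, while for EIF2AK4 and CARS all low birds lie above all high birds.

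Kinases that phosphorylate eIF2, and so slow initiation, did not share a direction. EIF2AK2, the kinase PKR that is activated by double-stranded RNA (chromosome 3, 31347176 to 31365169), had 9.42, 12.4, 10.5 and 10.5 CPM over the high and 5.99, 7.72, 6.81 and 9.58 CPM over the low birds. Only high bird 1 and low bird 4 overlapped. The log2 fold change was 0.51 ± 0.21 (SE; edgeR adjusted p = 0.357), and 0.28 ± 0.24 without low birds 1 and 3. EIF2AK4, the kinase GCN2 that senses uncharged tRNA (chromosome 5, 28753088 to 28787177), had 28.4, 28.4, 28.6 and 24.2 CPM over the high and 35.5, 31.6, 33.8 and 29.6 CPM over the low birds. All low birds lay above all high birds, with a log2 fold change of -0.25 ± 0.14 (SE; edgeR adjusted p = 0.451) that was -0.19 ± 0.17 without low birds 1 and 3. Such a lack of overlap was seen in 2 of the 82 genes (2.44%), EIF2AK4 and CARS, beside 6.18% of all genes. EIF2AK3, the kinase PERK of the endoplasmic reticulum, stood at 0.081 ± 0.23, and EIF2AK1, the haem-regulated kinase, named after its value was seen, at -0.11 ± 0.16 (SE).

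EIF2S1, the eIF2 subunit that these kinases phosphorylate, averaged 91.6 ± 11.9 CPM in high and 99.8 ± 13.5 CPM in low birds (SD, n = 4; edgeR adjusted p = 0.756). The 3 eIF2 subunits had a median log2 fold change of -0.12. Without low birds 1 and 3 all 3 lay below 0, with a median of -0.28 and EIF2S1 at -0.31. Averaged over the 3 subunits, high bird 3 was lowest, at -0.39 from the mean of the 8 birds on the log2 scale, and low bird 2 highest, at 0.22. Of the exchange factor eIF2B, which reloads eIF2 with GTP, 4 subunits lay between -0.020 and 0.21. The catalytic subunit EIF2B5 lay apart, with 11.5, 11.7, 14.2 and 10.5 CPM over the high and 19.4, 13.7, 19.7 and 11.6 CPM over the low birds. Low birds 1 and 3 were again the highest, and the log2 fold change of -0.43 ± 0.21 (SE; edgeR adjusted p = 0.415) was -0.11 ± 0.22 without them. EIF2A and EIF2D, which can carry the initiator tRNA in place of eIF2, had a median of -0.12, and of -0.20 without low birds 1 and 3.

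Among the 11 measured eIF3 subunits, 10 lay between -0.10 (EIF3J) and 0.15 (EIF3H), with a median of 0.052. EIF3A, the largest core subunit, had 255, 196, 221 and 201 CPM over the high and 349, 286, 276 and 202 CPM over the low birds. Only low bird 4 lay inside the high range, and the log2 fold change was -0.35 ± 0.18 (SE; edgeR adjusted p = 0.427). Without low birds 1 and 3 the 10 other subunits had a median of -0.17, close to -0.20 for EIF3A, so the gap between EIF3A and the rest was seen only with those birds included.

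In scanning and start site choice, EIF5, which triggers GTP hydrolysis by eIF2, averaged 488 ± 61.9 CPM in high and 575 ± 79.9 CPM in low birds (SD, n = 4), or -0.24 ± 0.16 on the log2 scale (SE). Without low birds 1 and 3 EIF5 stood at -0.38 ± 0.21 (SE). EIF1, which guards start codon choice, reached 421 CPM in low bird 2 and lay between 212 and 263 CPM in the other low birds. EIF5 and EIF1 were named after their values were seen. EIF6, which keeps the ribosomal subunits from joining too early, stood at -0.069 ± 0.13 (SE). The Argonaute gene EIF2C3 had 6.39, 8.06, 8.15 and 6.59 CPM over the high and 11.4, 6.32, 15.7 and 7.73 CPM over the low birds. Its log2 fold change was -0.50 ± 0.28 (SE), and 0.023 ± 0.26 without low birds 1 and 3, which had its highest levels. For EIF2C3 and EIF2C1 the count was not whole in any of the 8 birds, as can arise where reads are shared. That was also so for EIF2D, EIF2B4, EIF3F and IARS2. Such counts occurred in 6 birds for EIF6 and in 2 for FARS2, and 12 of the 82 genes had them in at least 1 bird.

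Elongation factor symbols had 5 of 6 values above 0 and a median log2 fold change of 0.13 (0.11 with RLE and 0.15 with upper-quartile scaling), and none had an unadjusted p under 0.05 by edgeR or DESeq2. The 6 include EEF1E1 (0.24), a scaffold of the multi-synthetase complex. Without it the middle value was 0.071, that of EEF2. Together the 6 genes took 1.08% ± 0.0831 of all counts in high and 1.005% ± 0.0909 in low birds (SD, n = 4). Initiation genes took 0.835% ± 0.0318 and 0.908% ± 0.03603, and synthetases 0.1503% ± 0.00723 and 0.159% ± 0.0101, in the same order (SD, n = 4). The initiation share was 0.793% to 0.869% in the high and 0.875% to 0.949% in the low birds, without overlap. It is a share of unscaled total counts, while TMM factors ran from 0.871 (low bird 2) to 1.092 (high bird 3). On the TMM-scaled log2 scale, averaged over genes, the groups overlapped, with high bird 1 at 0.054 and low bird 4 at -0.00997. The share is weighted to the most counted genes, such as EIF4G2, and was not tested.

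The files list EEF1A on chromosome 3 (80913076 to 80916878) and on chromosome 20 (9348414 to 9360272). RefSeq's gene table for the later assembly GRCg7b has EEF1A1, the form of most tissues, on the former chromosome and EEF1A2, the form of adult muscle and nerve, on the latter. The chromosome 20 gene had 4882, 4296, 4519 and 4755 CPM over the high and 4247, 4825, 4386 and 4339 CPM over the low birds. Groups overlapped widely, at a log2 fold change of 0.052 ± 0.15 (SE; edgeR adjusted p = 0.903). The chromosome 3 gene had 1770.2, 2113, 2243 and 2176 CPM over the high and 1536, 1688, 1316 and 2081 CPM over the low birds. Low birds 1, 2 and 3 lay below every high bird and low bird 4 inside their range, and the log2 fold change of 0.33 ± 0.18 (SE; edgeR adjusted p = 0.456) was 0.11 ± 0.20 without low birds 1 and 3.

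Counts on chromosome 20 were 2.76, 2.03, 2.01 and 2.19 times those on chromosome 3 in the high birds and 2.77, 2.86, 3.33 and 2.09 times in the low birds, so the groups overlapped. The 2 genes encode close relatives, and reads may have been shared between them, which leaves both values uncertain. A count that was not whole, as can arise where reads are shared, occurred for each gene in 1 bird.

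Of the eEF1B exchange subunits, EEF1D stood at 0.20 ± 0.17 and EEF1B2 at -0.095 ± 0.16 (SE), or 0.075 and -0.24 without low birds 1 and 3. EEF1E1, despite its name a scaffold of the multi-synthetase complex, had 72.96, 49.2, 44.3 and 55.8 CPM over the high and 42.9, 47.9, 52.1 and 45.7 CPM over the low birds. High bird 1 was above all others, and the log2 fold change of 0.24 ± 0.17 (SE) was 0.077 when it was left out. Without low birds 1 and 3 EEF1E1 stood at 0.22. EEF2, which moves the ribosome, averaged 1273 ± 122 CPM in high and 1212 ± 102 CPM in low birds (SD, n = 4; edgeR adjusted p = 0.866).

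Behind that sum, the transcripts of EEF2 differed between birds. EEF2-201 had 464, 407, 510.4 and 221 CPM over the high and 748, 216, 702 and 211 CPM over the low birds, and EEF2-202 had 753, 859.8, 938 and 944 and 605, 987, 481 and 894 CPM. EEF2-201 thus held 55.3% and 59.3% of the gene in low birds 1 and 3, 17.97% and 19.1% in low birds 2 and 4, and 19.0% to 38.1% in the high birds. The split set birds of the low group apart from each other, and EEF2-201 stood at -0.23 ± 0.46 between groups (SE; edgeR adjusted p = 0.861). CARS-201 held 45.3% and 30.3% of CARS in low birds 1 and 3, 9.55% and 9.46% in low birds 2 and 4, and 5.84% to 22.1% in the high birds. The shares rest on the deposited estimates of reads per transcript. EEF2, CARS, EIF4G2 and the chromosome 20 EEF1A gene were the 4 members with 2 tested transcripts.

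**Figure D3:**
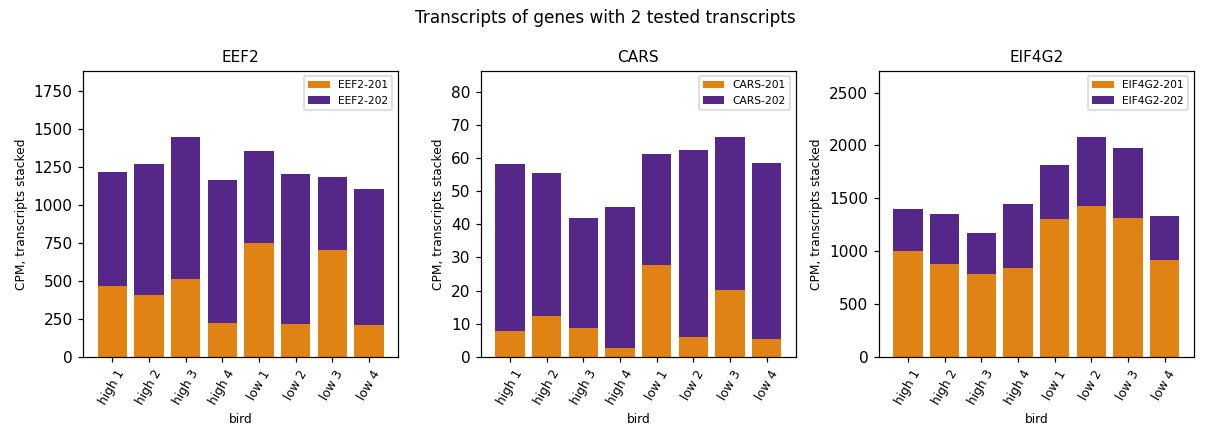
CPM of each transcript, stacked per bird, for EEF2, CARS and EIF4G2 (vertical axes from 0). EEF2-201 is tallest in low birds 1 and 3, at 748 and 702 CPM, and CARS-201 also, at 27.7 and 20.1 CPM.

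Synthetases were centred on 0, with 15 higher and 15 lower and a median log2 fold change of -0.0012 (-0.027 with RLE and 0.018 with upper-quartile scaling). An unadjusted p under 0.05 was found for 1 of 30 (3.33%, beside 12.8% of all genes), NARS. The median was -0.027 for 8 enzymes of the multi-synthetase complex, -0.013 for 11 other cytosolic enzymes (0.0070 with upper-quartile scaling) and 0.0093 for 11 mitochondrial enzymes (-0.016 with RLE).

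NARS, which loads asparagine (chromosome Z, 367004 to 377707), had 40.9, 45.04, 38.6 and 37.2 CPM over the high and 57.2, 46.5, 59.3 and 41.3 CPM over the low birds. Highest were low birds 1 and 3, and low bird 4 lay inside the high range, at a log2 fold change of -0.34 ± 0.15 (SE; edgeR adjusted p = 0.383) that was -0.15 ± 0.17 without low birds 1 and 3. CARS, which loads cysteine (chromosome 5, 12453649 to 12484691), had 58.1, 55.3, 41.9 and 45.1 CPM over the high and 61.0, 62.5, 66.2 and 58.6 CPM over the low birds. All low birds were above all high birds, by as little as 58.6 over 58.1 CPM. Its log2 fold change was -0.31 ± 0.14 (SE; edgeR adjusted p = 0.395), and -0.31 ± 0.19 without low birds 1 and 3.

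In the multi-synthetase complex, EPRS, the joint enzyme for glutamate and proline, had 204, 145, 154 and 155 CPM over the high and 234, 205, 235 and 169 CPM over the low birds. High bird 1 lay inside the low range (log2 fold change -0.36 ± 0.17, SE; edgeR adjusted p = 0.397). LARS, for leucine, known in mammals also as a leucine sensor for MTOR, had 49.01, 52.4, 42.5 and 39.6 CPM over the high and 66.8, 52.6, 61.3 and 48.1 CPM over the low birds. Low birds 1 and 3 were the highest, and the log2 fold change was -0.32 ± 0.15 (SE; edgeR adjusted p = 0.405). Without these birds EPRS stood at -0.22 ± 0.21 and LARS at -0.17 ± 0.18.

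The 6 other enzymes of the complex lay closer to 0 and on both sides of it, from -0.12 (IARS, for isoleucine) and -0.062 (RARS, for arginine) to 0.20 (QARS). QARS, for glutamine, had 36.7, 34.2, 34.7 and 34.6 CPM over the high and 34.9, 31.9, 23.4 and 31.6 CPM over the low birds, with low bird 3 lowest (log2 fold change 0.20 ± 0.15, SE; 0.079 without that bird). Without low birds 1 and 3 QARS stood at 0.11. MARS, for methionine, stood at 0.11 ± 0.16 (SE). DARS, for aspartate, reached 173 CPM in high bird 3 and 84.7 CPM in high bird 4, around 105 to 125 CPM in the low birds. Of the free enzymes, GARS, WARS and FARSB, for glycine, tryptophan and phenylalanine, stood at -0.12 ± 0.15, -0.14 ± 0.16 and -0.12 ± 0.13 (SE). TARS, for threonine, had 80.1 CPM in high bird 1 and 33.6 to 47.9 CPM in the other 7 birds, and its log2 fold change of 0.12 ± 0.25 (SE) was -0.24 without that bird. IARS, RARS, DARS and TARS were named after their values were seen.

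Mitochondrial synthetases ranged from -0.31 (NARS2) to 0.26 (FARS2). FARS2, for phenylalanine, had 16.8, 16.8, 17.2 and 14.2 CPM over the high and 15.7, 15.6, 11.96 and 10.9 CPM over the low birds, which overlapped (log2 fold change 0.26 ± 0.18, SE; edgeR adjusted p = 0.554). NARS2 and PARS2, for asparagine and proline, stood at -0.31 ± 0.24 and 0.21 ± 0.24 (SE), at under 8 CPM in every bird. Without low birds 1 and 3 NARS2 stood at -0.13, PARS2 at 0.19 and FARS2 at 0.26. PARS2 stood at 0.075 without low bird 1 alone. IARS2, for isoleucine, averaged 67.04 ± 6.42 CPM in high and 73.4 ± 10.4 CPM in low birds (SD, n = 4).

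**Figure D4:**
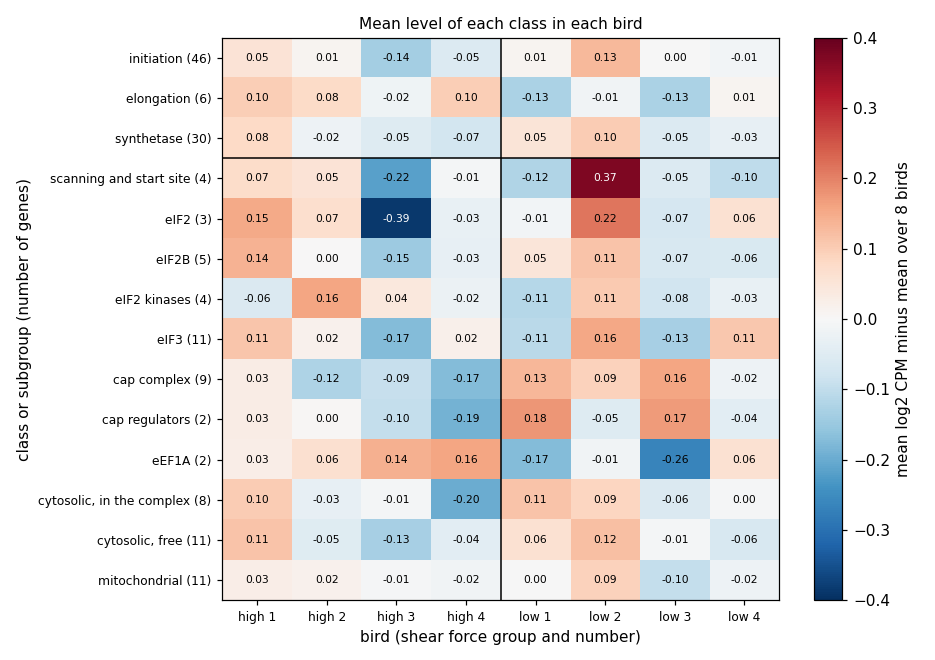
Mean over the genes of each class or subgroup (rows) of log2 CPM minus the gene's mean over the 8 birds, for each bird (columns). The cap complex is highest in low birds 3 and 1 (0.16 and 0.13), eEF1A is lowest in the same birds (-0.26 and -0.17), and eIF2 is lowest in high bird 3 (-0.39).

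Averaged per bird on the log2 scale, the initiation class ran from -0.14 (high bird 3) to 0.13 (low bird 2) around its mean. Elongation ran from -0.13 and -0.13 (low birds 1 and 3) to 0.10 (high bird 4), and synthetases from -0.074 (high bird 4) to 0.10 (low bird 2). The groups overlapped in each class.

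Of the 82 genes, 12 had an unadjusted p under 0.1, 10 of them lower in the high birds. The share of all genes at this cut was not taken, so these counts have no background beside them. In all 12 the log2 fold change was smaller without low birds 1 and 3, and 7 kept at least 0.5 of it. The 12 were picked for a small p with those birds included, so a smaller value without them can come from the choice itself. The same count was not made over all genes. Without this pair 0 of the 82 had an unadjusted p under 0.05 by edgeR, beside 7.51% of all genes, with a smallest adjusted p of 0.688; no other tool was run on those 6 birds. Class medians were then -0.15 for initiation, 0.089 for elongation and -0.11 for synthetases, with 22 genes higher, 60 lower and 22 on the other side of 0. Over all 10136 genes, 5154 were higher and 4982 lower without this pair. Across the 82 genes, which share the same 8 libraries, the log2 fold change had a Spearman's rho of -0.34 with the gene's genomic span, and of -0.17 without low birds 1 and 3. Over the 8076 genes with a position these were -0.32 and 0.018. The part of gene span in the values was not tested.

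**Figure D5:**
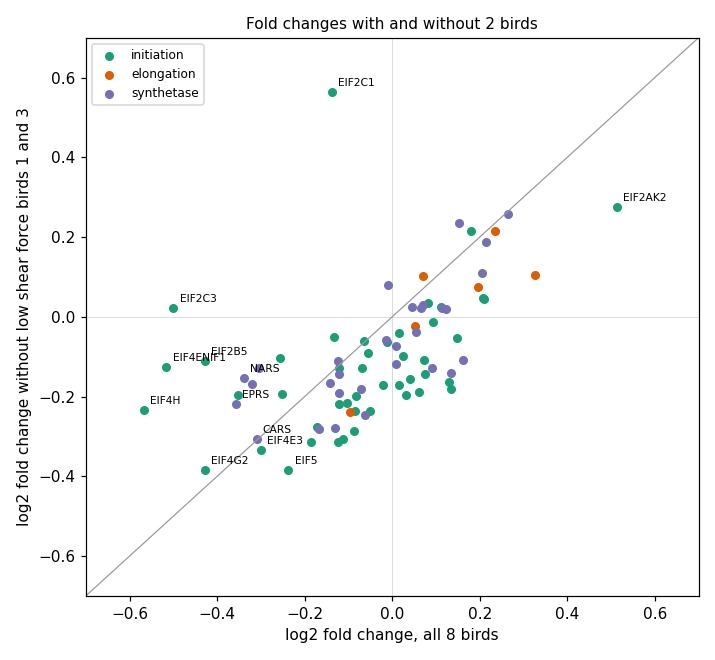
Log2 fold change of the 82 genes with all 8 birds (horizontal) and without low birds 1 and 3 (vertical), coloured by class; the diagonal marks equal values. EIF4H goes from -0.57 to -0.23 and EIF4ENIF1 from -0.52 to -0.13, while EIF4G2 (-0.43 and -0.38) and CARS (-0.31 and -0.31) stay near the diagonal.

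Related lists held no gene called after adjustment by edgeR or DESeq2. In the MTOR pathway to translation, 22 of 30 listed genes were tested, 7 higher and 15 lower, with a median log2 fold change of -0.091, and 3 of the 22 (1 higher, 2 lower) had an unadjusted p under 0.05, beside 12.8% of all genes. MTOR had 27.3, 25.6, 26.8 and 21.8 CPM over the high and 49.9, 28.6, 44.7 and 25.5 CPM over the low birds. Far above the rest stood low birds 1 and 3, and the log2 fold change of -0.55 ± 0.22 (SE; edgeR adjusted p = 0.3397) was -0.13 without them. RPS6KB2, a kinase of ribosomal protein S6, had 25.4, 21.5, 21.8 and 24.9 CPM over the high and 18.9, 19.3, 15.4 and 17.8 CPM over the low birds, without overlap (0.39 ± 0.15, SE; edgeR adjusted p = 0.3397). MKNK1, a kinase of EIF4E, had 2.39, 5.14, 3.26 and 5.42 CPM over the high and 6.61, 5.62, 6.94 and 8.23 CPM over the low birds, also without overlap (-0.75 ± 0.29, SE; edgeR adjusted p = 0.3397). Without low birds 1 and 3 RPS6KB2 and MKNK1 stood at 0.30 and -0.80, and the median of the list at 0.062. Lack of overlap was seen in these 2 of the 22 genes (9.09%), beside 6.18% of all genes, and both were named for a small p.

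For 35 listed symbols of the amino acid stress response, 20 entries were tested, 6 higher and 14 lower, with a median of -0.084. SLC7A5 stands for 2 of these entries, both lower. An unadjusted p under 0.05 was found for 2 of the 20, both lower, beside 4.91% of all genes in that direction and 12.8% in either. ATF4, the transcription factor made when eIF2 is phosphorylated, averaged 403 ± 34.8 CPM in high and 420.4 ± 162 CPM in low birds (SD, n = 4), with 651 CPM in low bird 2 and a log2 fold change of -0.059 that was -0.37 without low birds 1 and 3. ASNS, asparagine synthetase and a known ATF4 target, had 20.9, 13.6, 20.8 and 18.6 CPM over the high and 16.1, 20.5, 37.03 and 28.9 CPM over the low birds, which overlapped (-0.48 ± 0.25, SE; edgeR adjusted p = 0.442), and stood at -0.26 without low bird 3 alone. GCN1L1, the partner of EIF2AK4, stood at -0.34 ± 0.15, PPP1R15B, which directs a phosphatase to eIF2, at -0.43 ± 0.19, and the bZIP repressor JDP2 at 0.60 ± 0.28 (SE). Without low birds 1 and 3 GCN1L1, PPP1R15B, JDP2 and ASNS stood at -0.30, -0.45, 0.43 and -0.45.

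Termination, recycling and poly(A) binding gave 12 tested of 14 listed genes, 3 higher and 9 lower, with a median of -0.12 and 1 of 12 with an unadjusted p under 0.05, beside 12.8% of all genes. That gene, GSPT1, the release factor eRF3, averaged 93.8 ± 7.69 CPM in high and 115 ± 9.21 CPM in low birds (SD, n = 4), at -0.30 ± 0.13 (SE; edgeR adjusted p = 0.375). ABCE1 and PELO, which split and rescue ribosomes, stood at -0.23 ± 0.14 and 0.30 ± 0.17 (SE). Without low birds 1 and 3 GSPT1, ABCE1 and PELO stood at -0.33, -0.30 and 0.060. Of 12 mitochondrial translation factors 9 were tested, 5 higher and 4 lower, with a median of 0.057 and 1 of 9 with an unadjusted p under 0.05, against the same 12.8%. It was MTIF3, a mitochondrial initiation factor, with 81.6, 91.5, 78.02 and 92.3 CPM over the high and 52.1, 68.8, 60.6 and 77.6 CPM over the low birds, without overlap (0.41 ± 0.15, SE; edgeR adjusted p = 0.3397); it stood at 0.20 without low birds 1 and 3. MRRF and GFM2, which recycle mitochondrial ribosomes, stood at 0.37 ± 0.20 and 0.36 ± 0.31 (SE). Without the same birds they stood at 0.23 and 0.24, and GFM2 stood at 0.0029 without high bird 1. Of 13 scaffold, editing and modifying enzymes 5 were tested, 4 higher and 1 lower, with a median of 0.054. DOHH, which completes the hypusine of eIF5A, stood at 0.35 ± 0.20 without overlap of the groups, AIMP2, a scaffold of the synthetase complex, at 0.14 ± 0.15, and DPH3, of diphthamide synthesis on eEF2, at -0.087 ± 0.21 (SE). Without low birds 1 and 3 DOHH, AIMP2 and DPH3 stood at 0.25, 0.028 and -0.12. Lack of overlap was seen in 1 of the 9 mitochondrial factors and 1 of these 5 enzymes, beside 6.18% of all genes. Both genes, MTIF3 and DOHH, were named for the smallest p of their list.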

How the data were processed

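Per the labels' protocols, muscle was kept in RNAlater, RNA was taken with Trizol and libraries came from Illumina's TruSeq RNA kit; the design text gives 2 technical repetitions. The authors deposited expected counts per gene and transcript, 1 column per bird, of which 8.22% of gene values were not whole (tolerance 0.005). Tools in the submitters' processing notes are RSEM, Bowtie2, TopHat, FastQC, Cuffdiff, edgeR and DESeq2, and the build is galGal4; no source used here gives the strand setting or how repetitions were joined. The authors' deposited tables also hold log2 fold changes, p-values and symbols. Their fold changes had the sign opposite to high over low in 7816 of 8076 genes and were not used, and in the authors' deposited tables the 82 genes had 0 adjusted p-values under 0.05 by either tool.

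Here counts were rounded, filtered with filterByExpr, scaled by TMM and tested with edgeR 4.0.16 (robust quasi-likelihood, group alone, R 4.3.3) with Benjamini-Hochberg adjustment over all genes. DESeq2 1.42.0 and limma 3.58.1 gave alternatives. The fits were tested on simulated data. The log2 CPM of single birds used a prior count of 2. The labels name separate samples and no more, so p-values measure the spread between these samples, and overlapping genes may share reads.

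Members, lists and the naming rule were chosen with earlier results of these data known. The rule named all elongation genes, the 10 initiation and 10 synthetase genes of smallest p, a fixed set, and 3 genes per related list plus ATF4, ASNS and MTOR; EIF4A1, EIF5A, DDIT4 and sequences are not analysed here, and 1 member is counted but not reported by name.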

Additional observations from a re-analysis of the deposited data

Results flagged for a closer look

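In 106 sets of 4 birds, each a named gene in a group, 4 held a bird far from the other 3, where chance gives about 1 in 20. EIF2AK4 was at 24.2 CPM in high bird 4, below 28.4 to 28.6 CPM in the other high birds. FARS2 was at 14.2 CPM in the same bird, below 16.8 to 17.2 CPM. EIF4E was at 141 CPM in low bird 1, below 168 to 173 CPM in the other low birds. ABCE1 was at 108 CPM in high bird 1, above 78.9 to 83.2 CPM.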

How the results depend on the processing

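Over all genes the edgeR quasi-likelihood test called 0, and 7 with no low-count filter, 123 with DESeq2, 24 with limma-voom and sample weights, 126 with the edgeR exact test, and 0 to 7 with 1 bird left out. None of the 82 genes was called under any of these settings. Initiation genes with an unadjusted p under 0.05 numbered 3, and 0 without low birds 1 and 3, 8 with limma-voom and sample weights, and 1 to 6 with 1 bird left out. Synthetases numbered 1, and 4 with RLE scaling, DESeq2 or limma-voom and sample weights, 0 with upper-quartile scaling, the exact test or without low birds 1 and 3, and 0 to 3 with 1 bird left out. Elongation genes numbered 0, and 1 with limma-voom and sample weights, and 0 to 1 with 1 bird left out. Of all tested genes, 12.8% had such a p in the main fit and 21.2% with limma-voom and sample weights. That share was 12.8% with RLE scaling, 12.9% with upper-quartile scaling, 13.2% with DESeq2 and 12.4% with the exact test. It was 7.51% without low birds 1 and 3, and 7.75% to 18.6% with 1 bird left out. Without low birds 1 and 3 the median log2 fold change was -0.15 for initiation, -0.11 for synthetases and -0.10 for scaffold and modifying enzymes. With 1 bird left out it ran from -0.046 to 0.21 for mitochondrial translation factors and from -0.14 to -0.071 for the stress response. Of 837 recomputed values of the 53 genes taken by the naming rule, many for a small p, 831 kept their direction. Genes named after their values were seen, such as TARS and EIF2C1, are not among the 53. Of all 82 genes, 22 changed sign without low birds 1 and 3. Without low birds 1 and 3 EIF2C3 stood at 0.023 and the chromosome 20 EEF1A gene at -0.023. With 1 bird left out EEF2 ran from -0.0016 to 0.11, EIF2AK3 from -0.057 to 0.20 and ATF4 from -0.25 to 0.20. The cause of these moves was not tested. The analysis without the Argonaute genes and the elongation value without EEF1E1 were chosen after seeing the data. Low counts limit the Argonautes and most mitochondrial synthetases. The same holds for other genes at such levels, among them EIF2AK2 (5.99 to 12.4 CPM), EIF4ENIF1 (6.45 to 14.7 CPM) and MKNK1 (2.39 to 8.23 CPM).

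The deviations of same-numbered birds correlated at 0.014, -0.0032, 0.205 and 0.318, the last being the highest of all pairs. Pairs with different numbers ran from -0.330 to 0.231. So few pairs cannot settle whether replicate numbers pair the birds. With the replicate block 1 gene was called over all genes, none of the 82, and 4 initiation, 0 elongation and 1 synthetase gene had an unadjusted p under 0.05. In that fit 14.9% of all genes had such a p, and the smallest edgeR adjusted p of the 82 was 0.163.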
